A study of Rattus norvegicus with 16 samples.

Results

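Cerebellin 1 (Cbln1) is 1 gene of the 32883 that the deposited count table lists, and it stands there under the identifier ENSRNOG00000000010. It was chosen because its CPM (a gene's count scaled to a library total of 1000000) by group and circadian time had been seen in these libraries. Its levels, the difference between the groups and the fitted rhythms are therefore given as a description. For tests across all genes the text states only whether Cbln1 was called, and neither outcome counts as a test of it. The table lists genes by Ensembl identifier only. The symbol Cbln1 was taken with the identifier and could not be checked against the reference tables used here.

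RNA-Seq libraries were made from the fetal suprachiasmatic nuclei (SCN), the hypothalamic nuclei that later house the central circadian clock, of Wistar rats kept in constant darkness. Group A (8 libraries) comes from mothers with sham surgery and food ad libitum, and Group B (8 libraries) from mothers whose own SCN had been lesioned and whose food was restricted in time. Each library is the pooled SCN of 1 litter, 8 fetuses for Group A and, by the extraction protocol, 5 to 10 for Group B (the sample titles give 8 throughout), and each group has 1 library at each of 8 circadian times (CT), 3 h apart from CT0 to CT21. CT12 marks the start of the subjective night, set by the onset of maternal locomotor activity in Group A and by the onset of food-related activity in Group B. Surgery and feeding regime differ together between the groups and cannot be told apart in these libraries. Circadian time, litter and, within the day over which the mothers were killed, fetal age cannot be told apart either. The labels give embryonic day 17, whereas the methods of the study give a later age.

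Cbln1 encodes a small secreted glycoprotein of the C1q family that organizes synapses. It is best known from the cerebellum, where granule cells release it and where it bridges neurexins on the presynaptic side and delta-type glutamate receptors on the postsynaptic side. Related cerebellins are expressed in other brain regions, the hypothalamus among them. In the fetal SCN most synapses have yet to form. The RefSeq annotation (assembly GRCr8) lists Cbln1 as a protein-coding gene with 1 transcript between the protein-coding genes C19h16orf78 and N4bp1, and 0 listed genes overlap it. Its receptors, the other cerebellins and marker genes of the SCN and of neighbouring cell types could not be matched to identifiers and were not analysed here. In pooled tissue, fewer cells that express a gene and less RNA per cell cannot be told apart.

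The libraries of Group A had total counts of 10746066 to 12781966. Those of Group B had 10047500 to 18738585. Of the 120 pairs of libraries, 0 were identical. The CT3 library of Group B stood apart from its group by correlation across genes, and values without it are given beside the means, spreads, fits and correlations that rest on Group B. Between 278 and 954 reads per library fell on Cbln1. At these counts the bounds of the 95% exact Poisson intervals lay 6.25% to 12.5% from the value, and they cover counting error only.

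In Group A the level of Cbln1 was 71.0 CPM at CT0 (95% interval 66.2 to 76.0), 49.9 CPM at CT3, 79.4 CPM at CT6 (74.4 to 84.6), 64.4 CPM at CT9, 70.3 CPM at CT12, 48.7 CPM at CT15, 33.0 CPM at CT18 and 32.9 CPM at CT21 (29.8 to 36.2). The level was thus highest in the middle of the subjective day and lowest late in the subjective night, with CT3 below the libraries on either side of it. The highest library was 2.42-fold above the lowest.

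In Group B the level was 44.4 CPM at CT0, 41.5 CPM at CT3, 35.1 CPM at CT6, 31.9 CPM at CT9, 28.3 CPM at CT12, 24.98 CPM at CT15 (22.1 to 28.1), 36.7 CPM at CT18 and 46.6 CPM at CT21 (42.6 to 50.9). From CT0 to CT15 each library was lower than the one before, and at CT18 and CT21 the level was higher again. The highest library was 1.87-fold above the lowest.

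**Figure D1:**
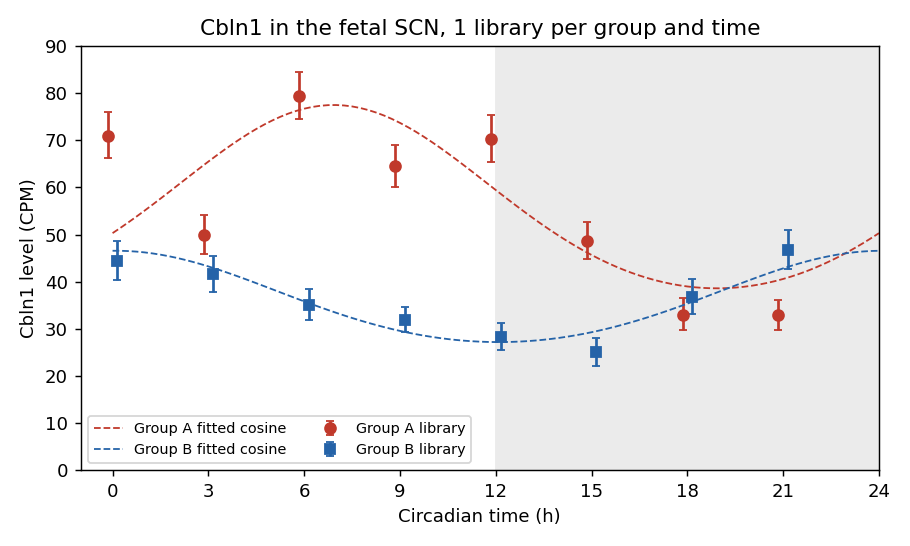
Level of Cbln1 in CPM (y axis) against circadian time in hours (x axis) in the 8 libraries of Group A (red circles) and the 8 of Group B (blue squares), with 95% exact Poisson intervals for counting error; dashed lines are the cosines fitted to each group and the grey field is the subjective night. Group A lies above Group B from CT0 to CT15, and Group B lies above Group A at CT18 and CT21.

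Within a group the order of the levels was less certain than the counting intervals show, since the levels also scattered around the fitted curves. The dispersion that DESeq2 gave Cbln1 around separate cosines corresponds to a coefficient of variation of 19.4%, which includes any departure of the true course from a cosine. A difference between a pair of libraries then has an SD of 0.40 to 0.41 on the log2 scale. The dispersion is 1 value for both groups, and the cosine fits below use it. Levels lay at 0.762 to 1.41 times the fitted curve in Group A and at 0.853 to 1.09 times in Group B. In Group A the descending order was CT6, CT0, CT12, CT9, CT3, CT15, CT18 and CT21. Of the 7 pairs of neighbours in this order, 3 differed by more than counting error, namely CT6 and CT0 (1.12-fold), CT9 and CT3 (1.29-fold), and CT15 and CT18 (1.48-fold). Only the step from CT15 to CT18, of 0.56 on the log2 scale, exceeded 1 SD of the scatter, and 0 of the 7 steps exceeded 2 SD. In Group B the descending order was CT21, CT0, CT3, CT18, CT6, CT9, CT12 and CT15. Here 0 of the 7 neighbouring pairs differed by more than counting error. Sorting by level makes the steps between neighbours small, so these counts do not bear on libraries farther apart in the order. The distance from the top to the bottom of the order was 1.27 on the log2 scale in Group A and 0.90 in Group B.

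The groups were then set side by side at each circadian time, which shows how the fetuses of lesioned and time-restricted mothers compared with those of sham-operated mothers fed ad libitum. Cbln1 was higher in Group A at 6 of the 8 times, from CT0 to CT15, and the counting interval of the ratio lay above 1 at each of these 6. The ratio of Group A to Group B was 1.60 at CT0 (95% interval 1.42 to 1.80) and 1.20 at CT3 (1.06 to 1.36). It was 2.26 at CT6 (2.02 to 2.54), 2.02 at CT9 (1.81 to 2.25), 2.48 at CT12 (2.20 to 2.81) and 1.95 at CT15 (1.69 to 2.25). From CT6 to CT15 Group A thus had about double the level of Group B. At CT18 the ratio was 0.899 (0.778 to 1.04), within counting error, and at CT21 it was 0.705 (0.617 to 0.804), with Group B the higher. These intervals cover counting error within 1 litter against 1 litter. Set against the SD of 0.40 to 0.41 given above, the log2 differences (Group B minus Group A) at CT3 (-0.26) and CT18 (0.15) lay within 1 SD. Those at CT0 (-0.68) and CT21 (0.50) lay between 1 and 2 SD, and those from CT6 to CT15 beyond 2 SD.

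**Figure D2:**
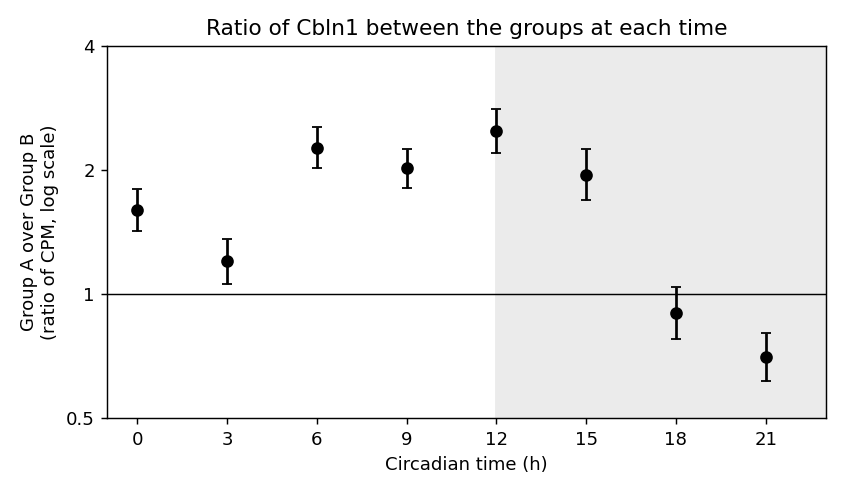
Ratio of the CPM of Cbln1 in Group A to that in Group B (y axis, log scale) at each circadian time in hours (x axis), with 95% exact intervals for counting error; the line marks equal levels and the grey field the subjective night. The ratio is highest at CT12 with 2.48 and lies below 1 at CT18 and CT21.

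Over all times the level was 56.2 ± 17.7 CPM in Group A (SD, n = 8 libraries; lowest 32.9, median 57.2, highest 79.4) and 36.2 ± 7.68 CPM in Group B (SD, n = 8; lowest 24.98, median 35.9, highest 46.6). The mean log2 CPM was lower in Group B by 0.59 (standard error 0.21), so that Group A was 1.51-fold above Group B. With 1 library per group and time, this standard error holds the course over the day together with the scatter between litters. The groups overlapped, with 6 libraries of Group A above every library of Group B and 3 libraries of Group B below every library of Group A. For comparison, 2 of the 13685 genes that passed the filter on low counts (0.0146%) had groups that did not overlap. Without the CT3 library of Group B its mean was 35.4 ± 7.96 CPM (SD, n = 7), the difference was -0.63, and the groups of 8 genes did not overlap.

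Across all genes, the quasi-likelihood test of edgeR for Group B against Group A called 0 of 13685 genes (0%) after Benjamini-Hochberg adjustment at 0.05, the lowest adjusted p being 0.706, so Cbln1 was not called. Before adjustment 795 genes (5.81%) had p below 0.05, and DESeq2's Wald test called 0 after adjustment. In size the difference of Cbln1 lay at the edge of the distribution. Among the 9974 genes with a mean count of at least 100, the absolute difference had a median of 0.046 and exceeded 0.33 in 1% of genes, on the log2 scale. It was at least as large as that of Cbln1 in 21 genes (0.211%), counting Cbln1, of which 11 were lower and 10 higher in Group B. Without the CT3 library of Group B the difference of Cbln1 was reached by 40 genes, and the test called 0 genes (1149 before adjustment). Since Cbln1 was chosen on these values, its place in this distribution is a description.

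**Figure D3:**
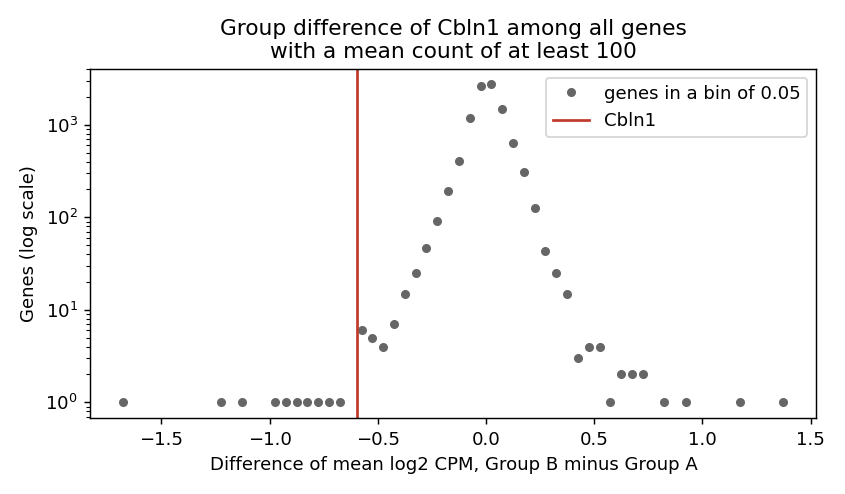
Number of genes (y axis, log scale) in bins of the difference of mean log2 CPM between Group B and Group A (x axis) over the 9974 genes with a mean count of at least 100; the red line marks Cbln1 at -0.59. Few genes lie as far from 0 as Cbln1 on either side.

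The spread of Cbln1 over the day was also wide. The SD of its log2 CPM over the 8 libraries of Group A was 0.50, where the median gene had 0.13, and 123 of the 9974 genes (1.23%) had an SD at least as large. In Group B the SD was 0.32 against a median of 0.12, and 411 genes (4.12%) reached it. Without its CT3 library the SD was 0.33, which 305 genes reached.

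In Group A, Cbln1 had 66.2 ± 12.4 CPM in the subjective day (CT0 to CT9, SD, n = 4 libraries) and 46.2 ± 17.7 CPM in the subjective night (CT12 to CT21, n = 4), a change of mean log2 CPM from day to night of -0.57. Day and night overlapped, since the CT12 library with 70.3 CPM lay above the CT3 and CT9 libraries of the day. In Group B the values were 38.2 ± 5.74 CPM in the day and 34.1 ± 9.67 CPM in the night (n = 4 each), a change of -0.19. Without its CT3 library the day had 37.1 ± 6.49 CPM (n = 3) and the change was -0.15. The night of Group B held both its lowest library, at CT15, and its highest, at CT21, so the means of day and night do not describe its course.

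A 24-hour cosine was fitted to each group with negative binomial errors. In Group A the fitted peak was at CT6.92 (standard error 1.09 h) with a peak 2.01-fold above the trough, or 1.01 on the log2 scale (standard error 0.29). In Group B it was at CT0.0956 (standard error 1.42 h) with a peak 1.71-fold above the trough, or 0.78 on the log2 scale (standard error 0.29). The fitted peaks lay 6.83 h apart (standard error 1.79 h), and the trough of Group B at CT12.1 followed the peak of Group A. With each library left out in turn the peak of Group A stayed between CT6.17 and CT8.58. The largest shift was without its CT0 library, which lay 1.41-fold above the fitted curve. In Group B the peak stayed between CT23.4 and CT0.564, and without its CT3 library it was at CT0.220 with 0.80 from peak to trough on the log2 scale. Among the 9974 genes, a fitted ratio of peak to trough at least as large was found in 72 (0.722%) in Group A and in 180 (1.80%) in Group B, or in 140 without the CT3 library of Group B.

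Model selection after the procedure of dryR then weighed 5 models, namely no rhythm, Arhy (a cosine for Group A alone), Brhy (one for Group B alone), ABsync (1 cosine that both groups share) and ABdiff (a cosine of its own for each group). A gene is assigned to the best model if its Bayes information criterion weight (BICW) is above 0.5. Cbln1 had a BICW of 0.642 for ABdiff, 0.280 for Arhy, 0.0362 for Brhy, 0.0261 for ABsync and 0.0158 for no rhythm. It was thus 1 of 42 genes (0.307% of 13685) assigned to ABdiff. Of the other models, no rhythm held 69.2% of genes, ABsync 5.03%, Brhy 4.3% and Arhy 2.4%. The remaining genes had no BICW above 0.5 and were left unassigned. Without the CT3 library of Group B, 40 genes were assigned to ABdiff.

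The choice between ABdiff and Arhy, which differ in whether Group B has a cosine, was not stable. The negative binomial weights rest on 1 dispersion for both groups, while Group B lay closer to its fitted curve than Group A. Gaussian fits to CPM gave Arhy 0.502 and ABdiff 0.445, whereas Gaussian fits to log2 CPM gave ABdiff 0.852. ABdiff was the best model without any 1 of 13 libraries, with a BICW above 0.5 for 9 of these. Without the CT12, the CT15 or the CT21 library of Group B the best model was Arhy, with 0.461, 0.547 and 0.458. Without the CT3 library of Group B, which stood apart, ABdiff had 0.507. Without the CT0 library of Group A the BICW of ABdiff was 0.99997, and without its CT3 library it was 0.990. These are the libraries farthest above and below the fitted curve of Group A, at 1.41 and 0.76 times the fitted level. Without the one or the other the coefficient of variation around the fitted curves was 9.21% and 13.1%, where the other omissions gave 18.6% to 20.4%.

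**Figure D4:**
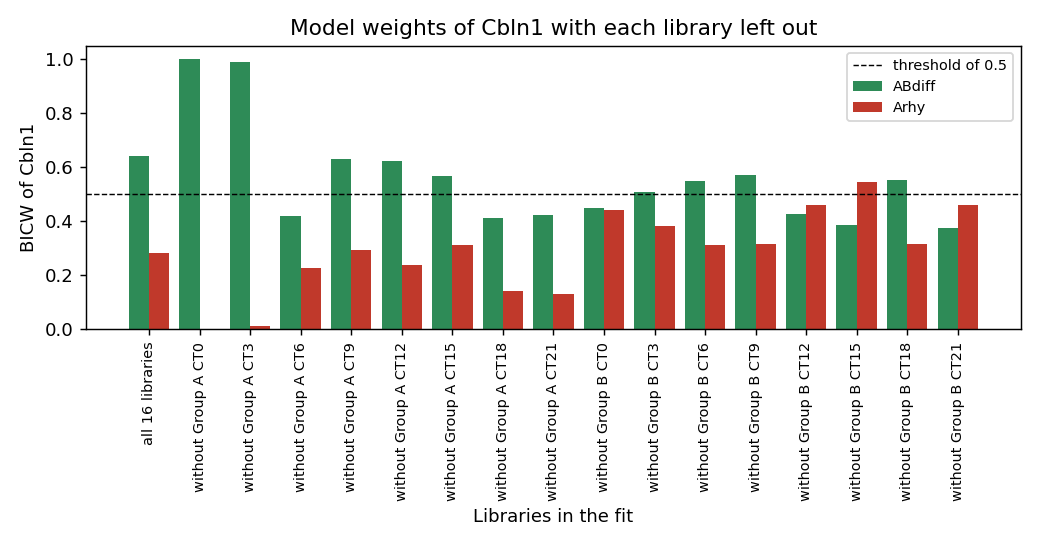
BICW of Cbln1 (y axis) for ABdiff (green) and Arhy (red) with all 16 libraries and with each library left out (x axis); the dashed line is the threshold of 0.5. ABdiff ranges from 0.373 without the CT21 library of Group B to 0.99997 without the CT0 library of Group A.

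In the tests of rhythms across all genes, the quasi-likelihood test of edgeR for a cosine common to both groups called 42 of 13685 genes (0.307%; 1635 or 11.9% before adjustment), and Cbln1 was not among them. With single libraries left out it called from 1 gene (CT3 or CT18 of Group A) to 86 genes (CT15 of Group A). Without the CT3 library of Group B it called 2 genes. The test of the difference between the cosines of both groups called 0 genes (0%, lowest adjusted p = 0.326). A cosine in 1 group alone also makes such a difference, so this test does not separate ABdiff from Arhy or Brhy. Before adjustment 838 genes (6.12%) had p below 0.05. The likelihood ratio test of DESeq2 called 4 after adjustment, and Cbln1 was not among these 4. With single libraries left out, the test of edgeR called 1 gene (CT0 of Group A), 1 gene (CT3 of Group A), 2 genes (CT6 of Group B) or 0 genes (the other 13, with 778 before adjustment for CT3 of Group B). The gene called without the CT0 library of Group A was Cbln1, and it was not called with any other library left out. Whether Cbln1 was called thus turned on 1 library, the one farthest above the fitted curve of Group A. Since Cbln1 was chosen on these levels, the call is a description and no support for a difference in rhythm.

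A cosine is not the only course that the levels of Group A allow. A straight line over CT0 to CT21 had a slope of -0.15 per 3 h in log2 CPM (standard error 0.055) in Group A and of -0.024 (standard error 0.052) in Group B. When lines were weighed beside the cosines in 9 models, a line in Group A only had the highest BICW with 0.423. ABdiff followed with 0.271, Arhy with 0.118 and separate lines with 0.114. A line in Group A beside a cosine in Group B was not among the models, so these weights do not bear on it. With 1 day sampled, a fall over the day and a 24-hour rhythm cannot be told apart for Group A.

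Measures of library quality and composition were set beside the log2 CPM of Cbln1 over the 16 libraries, as a description. A difference between the groups in Cbln1 and in a measure would enter the pooled Pearson r. Values within each group (n = 8 libraries) therefore stand beside it. With the total count r was -0.30 (Spearman rho -0.28), and -0.21 within Group A and -0.45 within Group B. Without the CT9 and CT12 libraries of Group B, those farthest from the median depth, it was 0.077. With the number of genes detected r was -0.37 (rho -0.41), but -0.074 within Group A and 0.066 within Group B. With the percentage of counts in the 20 most abundant genes r was 0.49 (rho 0.42), and 0.32 within Group A and 0.23 within Group B. Levels of Cbln1 and the first principal component of the other genes had r = 0.44 (rho 0.54), and 0.40 within Group A and 0.41 within Group B. For the second component r was -0.50 (rho -0.43), and -0.31 within Group A and -0.40 within Group B. Without the 2 libraries farthest from the median of the measure, r was -0.46 for genes detected, 0.31 for the most abundant genes, 0.24 for the first component and -0.38 for the second. The part of these measures in the levels of Cbln1 was not tested.

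The genes whose levels followed Cbln1 most closely were found by the Pearson correlation of log2 CPM over the 16 libraries, among the other 9973 genes with a mean count of at least 100. The libraries share depth and composition, and the highest of so many correlations are high by selection. ENSRNOG00000007608 was the closest by far, with r = 0.95 and rho = 0.90. It was the only gene at or above 0.9, where 8 genes were at or above 0.8 and the median was -0.044. Its r was 0.97 within Group A and 0.82 within Group B, or 0.81 without the CT3 library of Group B. In Group A its level was 35.8 CPM at CT0, 19.01 at CT3, 45.4 at CT6, 31.6 at CT9, 39.2 at CT12, 25.5 at CT15, 14.7 at CT18 and 14.0 at CT21. It thus repeated the dip of Cbln1 at CT3 as well as the low level at CT18 and CT21. In Group B it had 22.3 CPM at CT0, 20.04 at CT3, 23.3 at CT6, 15.0 at CT9, 13.9 at CT12, 12.9 at CT15, 16.8 at CT18 and 19.8 at CT21. Its lowest library was the same as that of Cbln1, but its highest was CT6.

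**Figure D5:**
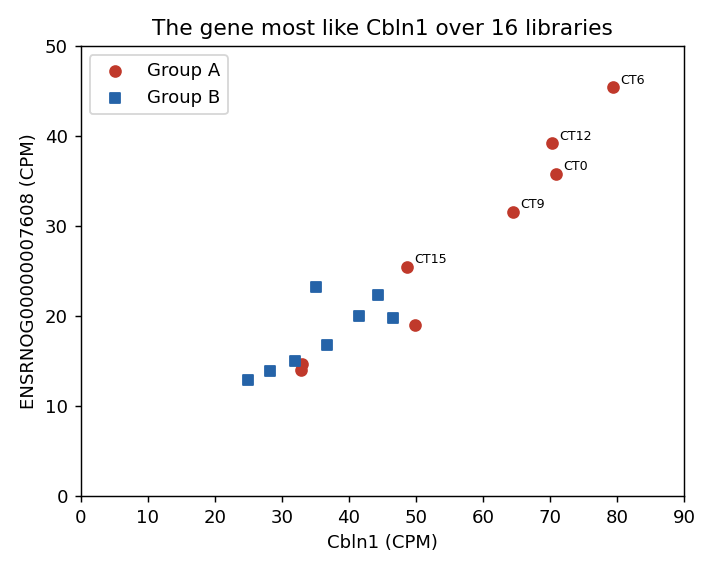
Level of ENSRNOG00000007608 in CPM (y axis) against that of Cbln1 in CPM (x axis) in the 16 libraries, Group A as red circles and Group B as blue squares, with the circadian time of the libraries above 25 CPM on the y axis. The 5 labelled libraries all belong to Group A and lie to the right of Group B.

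The second closest gene, ENSRNOG00000002827, had r = 0.86 over the 16 libraries, 0.90 within Group A and 0.59 within Group B, or 0.61 without the CT3 library of Group B. Its level was 41.6 ± 8.87 CPM in Group A and 34.4 ± 4.07 CPM in Group B (SD, n = 8 libraries each). The 10 closest genes had r of at least 0.79. Of these, 7 were also among the 10 closest by Spearman's rho, 2 by Pearson's r within Group A alone and 1 within Group B alone. The identity of the closest genes thus rests on both groups together.

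Of the genes that ran opposite to Cbln1, 16 had r of -0.8 or lower and 0 had r of -0.9 or lower. ENSRNOG00000020833 had the lowest r, -0.89 (within Group A -0.90, within Group B -0.77), with 194 ± 19.4 CPM in Group A and 218 ± 18.8 CPM in Group B. ENSRNOG00000009409 came next with r = -0.89 (within Group A -0.87, within Group B -0.70), with 6.60 ± 2.76 CPM in Group A and 9.90 ± 2.24 CPM in Group B (SD, n = 8 libraries each). Without the CT3 library of Group B the r within Group B was -0.75 and -0.67 for these genes, and over the other 15 libraries it was -0.90 and -0.89. No symbol is given for these identifiers, since the count table holds none.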

How the data were processed

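RNA-Seq counts of 16 pooled fetal SCN libraries were used, 8 per group, with groups and times from the labels. The authors depleted rRNA, enriched polyA RNA, used a stranded kit and mapped single-end reads to rn6 (Rnor_6.0) with HISAT2 2.1.0 in the nf-core/rnaseq workflow, naming Salmon and StringTie for counting. The deposited values are raw counts per Ensembl gene, neither normalized nor filtered. Whether counting used strand is not given in the sources used here. All columns were matched to samples.

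Everything else was computed with R 4.3.3, edgeR 4.0.16 and DESeq2 1.42.0. CPM was taken over the total count. A gene entered the tests if 3 or more libraries had 1.5 CPM or more (13685 genes), the minimum that the authors applied, and distributions over genes used a mean count of at least 100. Quasi-likelihood tests in edgeR used TMM and Benjamini-Hochberg adjustment at 0.05. The model selection used DESeq2 size factors and dispersions and the Bayes information criterion. The 3 edgeR tests, the model selection for genes simulated as ABdiff and the separate cosine fits were tried on simulated counts. The other procedures, such as the DESeq2 tests, Gaussian fits and straight lines, were not. Cbln1 and the gene lists were chosen with earlier results of these data known. The genes named were to be Cbln1, genes of set lists of synapse and marker genes, and the 10 genes most and 5 least like Cbln1. Without symbols the lists could not be looked up, and only 2 identifiers in each direction are printed. Alternatives were other size factors, other filters, DESeq2 tests, Gaussian fits, circadian time as a block and each library left out. No sequence of Cbln1 was used here.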

Additional observations from a re-analysis of the deposited data

Results flagged for a closer look

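In 8 checks of single libraries (Cbln1 in CPM and in log2 CPM, total count and mean correlation in each group), 1 library lay far from the other 7 of its group. Chance flags about 1 in 20 such checks, or 0.4 of 8. In Group B the correlation of the CT3 library with the remaining 7 averaged 0.979. The next lowest average was 0.984 and the highest 0.987, over genes with a mean count of at least 100. The level of Cbln1 in it, 41.5 CPM, lay between those of its neighbours at CT0 (44.4 CPM) and CT6 (35.1 CPM).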

How the results depend on the processing

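The log2 difference of Cbln1 between Group B and Group A, -0.59 (standard error 0.21), kept its direction in all 28 settings tried. Leaving out 1 of 8 libraries can move the mean of a group only a little, so those settings are a weak check. It was -0.60 with TMM, -0.62 with circadian time as a replicate block and -0.69 to -0.51 with each library left out in turn. With both libraries of a time left out, a setting chosen after the data were seen, it was -0.75 without CT21 and -0.49 without CT12. Peak times and peak-to-trough ratios stayed within 1 standard error in 71 of 72 settings, the exception being the peak of Group A without its CT0 library (CT8.58). Many of these settings left out a library of the other group, which hardly enters the fit of a group's own cosine. The peak of Group A, for example, stayed at CT6.92 to CT6.93 without any 1 library of Group B. The count of 71 therefore overstates how far stability was tried. The BICW of ABdiff was 0.445 in Gaussian fits to CPM and 0.373 to 0.99997 with each library left out. It was 0.271 with straight lines among the models, a comparison chosen after the data were seen. The common cosine called 69 genes without a filter, 64 with at least 10 counts in every library, 266 by DESeq2, and 1 to 86 with each library left out. The difference between the cosines called 4 genes by DESeq2 and 0 to 2 with each library left out, Cbln1 among them without the CT0 library of Group A only. The cause of these changes was not tested. The comparison of groups called 0 genes in all 23 settings, the replicate block included (924 genes at an unadjusted p below 0.05). Libraries of the same time deviated together in 2 of 8 pairs only (correlation above 0.1; median 0.037), so the times were not taken to pair the libraries, and 1 of 8 Group A libraries correlated best with its own time. The bounds of the counting intervals of Cbln1 lay at most 12.5% from the level, and the scatter around the fitted curves was 19.4%, lack of fit included.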
